A study of Mus musculus with 6 samples.

Results

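The neural crest transcription factors examined here were *Sox9*, *Sox10*, *Tfap2a*, *Tfap2b*, *Tfap2c*, *Snai1*, *Snai2*, *Twist1*, *Ets1* and *Zeb2*. They were given as a list of gene symbols that sets no threshold on expression or change, and all 10 were found among the 14647 genes of the expression table. RNA was taken from mouse embryos at E9.5, from the pharyngeal region between the first and second arch junction and the base of the heart. The groups were *Pax9*-null embryos (*Pax9*-/-), which lack functional *Pax9* in every tissue, and stage-matched wild-type embryos (*Pax9*+/+), with 3 embryos and 3 libraries in each. Both sexes were mixed, all mice were on a C57Bl/6J background and no further allele or treatment was applied. The sample labels mention sorted cells, whereas the design text and the methods describe dissected tissue, and transcripts of heart, blood, vessel and neural tube were measured in every library.

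Neural crest cells arise at the border of the neural plate, leave the neural tube by an epithelial to mesenchymal transition and migrate into the arches, where they form most of the mesenchyme around the endoderm that expresses *Pax9*. Tfap2 factors act early in the specification of the crest, Snail, Twist and Zeb factors repress epithelial genes during the transition, and SoxE factors maintain crest progenitors and direct their later fates. Within the arches *Sox10* is lost from crest cells that become mesenchyme and is kept in those that become glia or pigment cells. None of these genes is exclusive to the crest: *Ets1* is also active in endothelium, *Snai1* and *Twist1* in mesoderm, *Tfap2* genes in surface ectoderm, and *Sox9* in the neural tube and otic vesicle. In RNA from a whole region, fewer crest cells and less RNA per crest cell cannot be told apart.

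Expression was read as RPKM, the reads of a gene scaled to its length and to the size of the library, on a log2 scale. Effective library sizes were inferred from the expression values. They were between 11509903 and 11728251 reads for the *Pax9*-null embryos and between 12352675 and 12692324 for the wild-type embryos. By the methods, reads had been sub-sampled in every library towards the size of the smallest. As a check of the genotypes, *Pax9* itself had 0.74, 0.64 and 0.67 RPKM in *Pax9*-null replicates 1 to 3 against 1.55, 1.64 and 1.94 RPKM in the wild-type replicates. Every *Pax9*-null value was lower, and the mean was 40.1% of the wild-type level (limma, log2 fold change −1.32 with a standard error of 0.19, adjusted *P*=0.0155). It was called in all 6 fits that left out a library. The *Pax9*-null libraries held 37 to 43 reads of the gene, and the table does not tell from which exons.

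Some libraries stood apart in the other cell types they held, as seen in the plot of cell type markers. The summed level of 7 cardiomyocyte genes was 31.5 RPKM in wild-type replicate 3 but between 697.6 and 872.3 RPKM in the other 5 libraries. The summed level of 8 erythroid genes, led by *Hbb-y*, was 4889.2 and 4449.1 RPKM in *Pax9*-null replicates 1 and 3, and between 2390.7 and 2636.3 RPKM in the other 4. Wild-type replicate 1 was low in the 9 neural tube genes (60.5 RPKM against 99.8 to 123.5 RPKM elsewhere) and high in the 10 endothelial genes (122.3 RPKM against 73.1 to 88.8 RPKM). Wild-type replicate 3 was highest in the 6 neuronal genes, at 152.9 RPKM against 62.1 to 90.2 RPKM. The part of these differences in the results below was not tested, and for called genes the number of the 6 fits leaving out a library in which the call was kept is given, as most calls depended on single libraries.

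**Figure D1:**
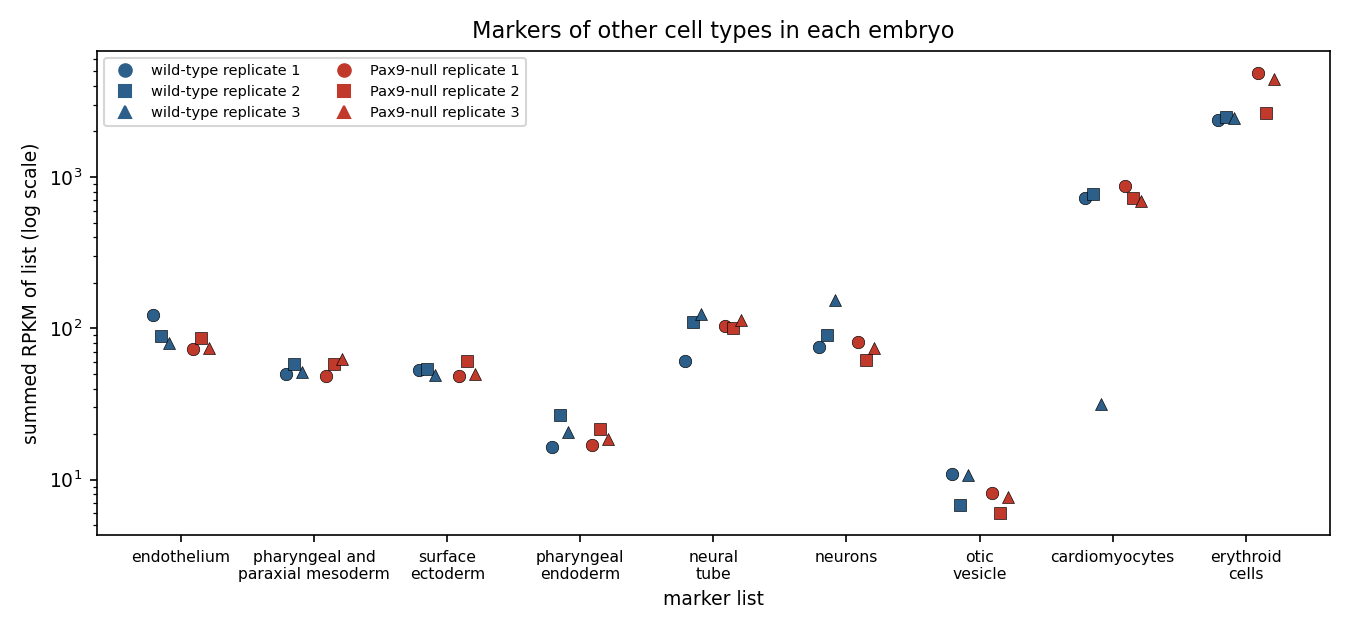
Summed expression (RPKM, log axis) of the markers of 9 other cell types in each embryo, with wild-type in blue and *Pax9*-null in red and one symbol per replicate number. Wild-type replicate 3 lies far below the others for cardiomyocyte genes (31.5 RPKM), and *Pax9*-null replicates 1 and 3 lie above the others for erythroid genes.

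Among the 10 crest factors *Twist1* was higher and *Sox10* was lower in *Pax9*-null embryos, and the other 8 did not pass the test. Genes were called when the adjusted *P* in limma was at most 0.1, the study's threshold, with *P* values adjusted over the 13547 genes that reached a mean of 0.5 RPKM, a level that all 10 factors passed. The 2 calls among 10 members compare with 26.7% called among all tested genes. The share of tested genes called lower was 12.0% and the share called higher was 14.7%, against 1 of 10 members in each direction. Of the 10 log2 fold changes, 8 were below 0, with a median of −0.18, whereas the median over all tested genes was −0.0012. All 3 libraries of one genotype lay beyond all 3 of the other for *Sox10*, *Zeb2* and *Twist1*, an order seen in 41.9% of tested genes.

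Fold changes in these libraries varied with the length and GC content of genes, so that each member was also read after the trends of every library with length and GC content had been removed. With these trends removed 2.51% of 13524 genes were called, and none of the 10 members was among them by limma, while 1, *Twist1*, had an unadjusted *P* under 0.05. The median of the members moved to −0.04. *Tfap2a*, *Tfap2c* and *Zeb2* then had values slightly above 0 (0.06, 0.04 and 0.02) and *Snai2* one below 0 (−0.15), whereas *Twist1* (0.34), *Snai1* (−0.40), *Tfap2b* (−0.32) and *Sox10* (−0.30) kept their signs.

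**Figure D2:**
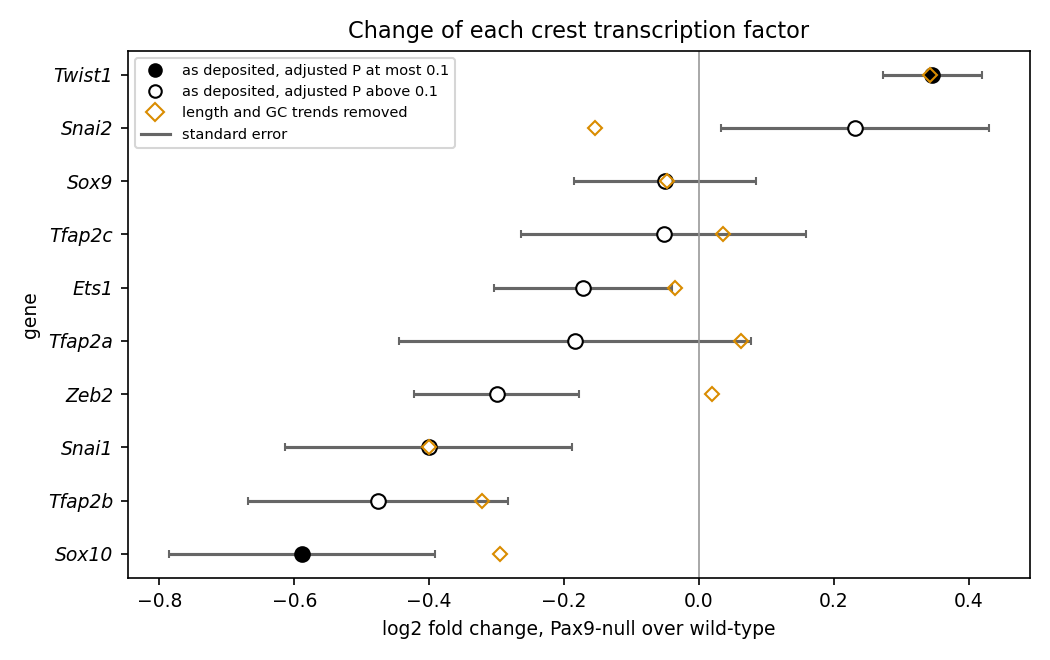
Log2 fold change (*Pax9*-null over wild-type) of each crest factor, with circles for the values as deposited, filled where the adjusted *P* was at most 0.1, bars for the standard error and diamonds for the values with length and GC trends removed. *Twist1* has the same value in both, near 0.35, while *Sox10* moves from −0.59 to −0.30.

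In wild-type embryos the factors spanned a wide range of expression per length. *Twist1* was the highest with 44.2 ± 1.59 RPKM (SD, *n*=3), followed by *Ets1* with 20.4 ± 3.34 RPKM. *Sox9* (6.72 ± 0.61 RPKM) and *Zeb2* (6.50 ± 0.47 RPKM) overlapped each other. *Snai1* (4.74 ± 0.51 RPKM), *Sox10* (4.55 ± 0.14 RPKM) and *Snai2* (4.19 ± 0.42 RPKM) formed a further group, in which neighbours overlapped. *Tfap2b* (3.06 ± 0.63 RPKM) overlapped *Tfap2c* (1.89 ± 0.44 RPKM), and *Tfap2a* was the lowest with 0.92 ± 0.20 RPKM. The steps from *Twist1* to *Ets1*, from *Ets1* to *Sox9*, from *Zeb2* to *Snai1*, from *Snai2* to *Tfap2b* and from *Tfap2c* to *Tfap2a* were larger than the spread, with all 3 values of the higher gene above all 3 of the lower.

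**Figure D3:**
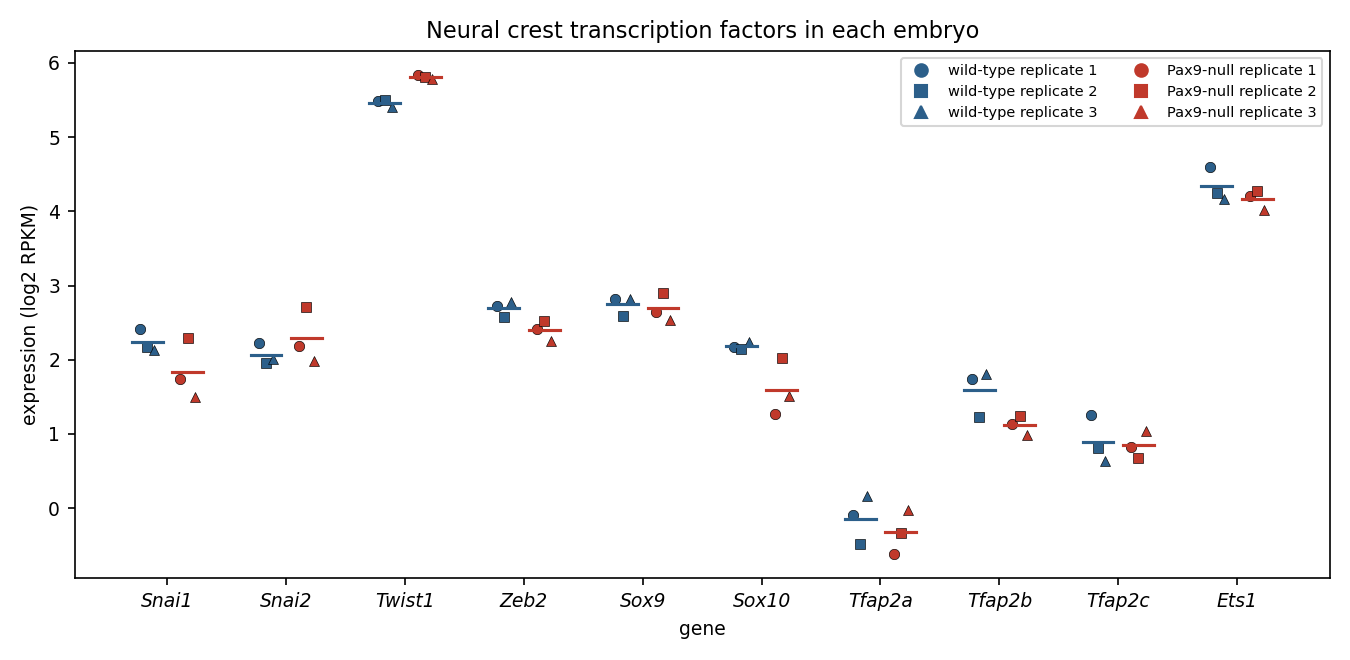
Expression (log2 RPKM) of the 10 crest factors in each embryo, with wild-type in blue, *Pax9*-null in red, one symbol per replicate number and a line at each group mean. The groups are apart for *Twist1*, *Sox10* and *Zeb2* and overlap for the other genes.

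*Twist1* (ENSMUSG00000035799, chromosome 12 of GRCm38 from 33957671 to 33959829) encodes a basic helix-loop-helix factor required for cranial crest mesenchyme. It had 57.4, 56.3 and 54.9 RPKM in *Pax9*-null replicates 1 to 3 and 44.8, 45.5 and 42.4 RPKM in wild-type replicates 1 to 3. The groups were well apart, with a *Pax9*-null minimum above the wild-type maximum and a spread within groups of at most 1.59 RPKM (SD). The *Pax9*-null mean was 127.1% of the wild-type level (limma, log2 fold change 0.35 with a standard error of 0.07, adjusted *P*=0.0399), and each library held 862 to 1073 of its reads. *Twist1* was the only one of the 10 factors to pass an adjusted *P* of 0.05 as well. Its log2 fold change stayed between 0.32 and 0.37 whichever library was left out, and was 0.22 after quantile normalisation (limma adjusted *P*=0.0845). It was not called in limma without *Pax9*-null replicate 1 (0.33, adjusted *P*=0.161) or 3 (0.36, adjusted *P*=0.128), fits in which only 2.22% and 1.29% of all tested genes were called. Nor was it called with length and GC trends removed (0.34, limma adjusted *P*=0.139). Genes of its length decile had a median log2 fold change of 0.15 and genes of its GC decile one of −0.24.

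In the table of RefSeq promoters used here (GRCm38.p6), 5 of the 10 factors were matched, namely *Tfap2a*, *Tfap2b*, *Snai1*, *Twist1* and *Zeb2*. The 250 bases before the start of *Twist1*, the called gene with an entry, and of *Snai1*, which holds a match to the E-box form that Snail and Zeb proteins are known to bind, are given 5′ to 3′ on the plus strand, as chr12:33957421-33957670 and chr2:167537945-167538194. Capitals mark matches, on either strand, to the E-box CANNTG, its Snail and Zeb form CAGGTG, the Sox core AACAAT, the Tfap2 motif GCCNNNGGC and the TATA motif TATAAA.
Twist1: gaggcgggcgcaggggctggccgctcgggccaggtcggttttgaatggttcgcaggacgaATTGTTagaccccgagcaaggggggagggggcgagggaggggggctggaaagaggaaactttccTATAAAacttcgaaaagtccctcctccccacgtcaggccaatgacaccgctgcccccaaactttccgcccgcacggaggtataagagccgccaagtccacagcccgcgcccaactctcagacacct
Snai1: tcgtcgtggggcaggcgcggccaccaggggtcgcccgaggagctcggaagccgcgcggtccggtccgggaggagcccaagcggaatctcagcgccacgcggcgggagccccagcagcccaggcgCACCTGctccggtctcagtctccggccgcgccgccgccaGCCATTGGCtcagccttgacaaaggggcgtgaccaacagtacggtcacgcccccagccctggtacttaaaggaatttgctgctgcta
*Twist1* had a Sox core match 190 bases and a TATA match 126 bases before its start, and no E-box. *Snai1* had the Snail and Zeb form, read on the other strand and counted as an E-box too, 126 bases before its start and a Tfap2 match 87 bases before it. Over 32851 promoter windows of the same length, 66.2% held an E-box, 17.2% its Snail and Zeb form, 9.42% the Sox core, 13.7% the Tfap2 motif and 12.4% the TATA motif. The Snail and Zeb form was in none of the windows of the other 4 factors with an entry. These matches describe the letters only.

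The Snail family genes encode zinc finger repressors of E-cadherin, and neither was called with all 6 libraries. *Snai1* (ENSMUSG00000042821, chromosome 2, 167538195 to 167542814) had 3.33, 4.90 and 2.81 RPKM in *Pax9*-null replicates 1 to 3 and 5.32, 4.52 and 4.39 RPKM in the wild-type replicates. *Pax9*-null replicate 2 lay within the wild-type range and the other 2 below it, so that the log2 fold change of −0.40 (standard error 0.21) did not pass (adjusted *P*=0.216 by limma). Without that replicate *Snai1* was called lower (−0.63, limma adjusted *P*=0.066), and without *Pax9*-null replicate 3 the log2 fold change was −0.23 (0.495). *Snai2* (ENSMUSG00000022676, chromosome 16, 14705852 to 14709385) had 4.53, 6.57 and 3.97 RPKM against 4.68, 3.89 and 4.01 RPKM. *Pax9*-null replicate 2 was the highest of all and the other *Pax9*-null values fell among the wild-type ones (log2 fold change 0.23, standard error 0.20, adjusted *P*=0.432 by limma). Without *Pax9*-null replicate 2 the log2 fold change of *Snai2* was 0.02.
Within embryos, the log2 ratio of *Snai2* to *Snai1* was 0.44, 0.42 and 0.50 in the *Pax9*-null and −0.19, −0.22 and −0.13 in the wild-type replicates. *Snai2* exceeded *Snai1* per length in every *Pax9*-null embryo and in no wild-type embryo. The difference of 0.63 (standard error 0.03) had a two-sided exact permutation *P* of 0.1, the smallest that 3 against 3 can give, and 0.2 when adjusted over the 4 ratios examined. The genes had 53 to 153 reads per library, for which counting error alone is 0.19 to 0.25 on this scale in each embryo, more than the observed SD of 0.04. A standard error from counting alone would be 0.18. The ratio does not depend on library scaling, but *Snai1* has a GC content of 59.8% and *Snai2* one of 42.6%, and with length and GC trends removed the difference was 0.25.

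*Zeb2* (ENSMUSG00000026872, chromosome 2, 44983632 to 45117395), a zinc finger and homeodomain repressor, had 5.35, 5.74 and 4.75 RPKM in *Pax9*-null replicates 1 to 3 and 6.63, 5.98 and 6.88 RPKM in wild-type replicates. All *Pax9*-null values were below all wild-type values, by a narrow margin for replicate 2 of either group. In limma this gave a log2 fold change of −0.30 with a standard error of 0.12 (adjusted *P*=0.125, two-sided exact permutation *P*=0.1), on 1111 to 1726 reads. *Zeb2* is the longest of the 10 genes (19942 bp), its length decile had a median log2 fold change of −0.20, and 3.3% of its exonic bases overlap other genes, among them the antisense *Zeb2os*.

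Among the SoxE genes, *Sox10* was lower in *Pax9*-null embryos and *Sox9* was not called. *Sox10* (ENSMUSG00000033006, chromosome 15, 79154908 to 79165240) marks migrating crest and its glial and pigment lineages. It had 2.40, 4.05 and 2.84 RPKM in *Pax9*-null replicates 1 to 3 and 4.52, 4.43 and 4.70 RPKM in wild-type replicates. The wild-type values were close together, and *Pax9*-null replicate 2 was just below them while replicates 1 and 3 were far below. The mean was 66.5% of the wild-type level (log2 fold change −0.59, standard error 0.20, adjusted *P*=0.0828 by limma, two-sided exact permutation *P*=0.1), from 75 to 160 reads. Of the 6 fits that left out a library, *Sox10* was called in 1, without *Pax9*-null replicate 2 (log2 fold change −0.80, limma adjusted *P*=0.0491). Omission of *Pax9*-null replicate 1 gave −0.42 (adjusted *P*=0.248 by limma) and of replicate 3 −0.54 (0.199). With wild-type replicates 1 to 3 omitted in turn the log2 fold change stayed at −0.594, −0.608 and −0.565, with limma adjusted *P* values of 0.141, 0.123 and 0.149. With length and GC trends removed the adjusted *P* was 0.348. The 2 embryos with the lowest *Sox10* were those with the highest erythroid sums, and the part of this in the result was not tested.

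*Sox9* (ENSMUSG00000000567, chromosome 11, 112782224 to 112787760), which acts in crest formation and later in cartilage, had 6.23, 7.49 and 5.80 RPKM in *Pax9*-null and 7.08, 6.02 and 7.07 RPKM in wild-type replicates 1 to 3. The groups overlapped widely (log2 fold change −0.05, standard error 0.13, adjusted *P*=0.817 by limma). The log2 ratio of *Sox10* to *Sox9* was −1.38, −0.89 and −1.03 in the *Pax9*-null and −0.65, −0.44 and −0.59 in the wild-type embryos, so that *Sox10* was lower relative to *Sox9* in every *Pax9*-null embryo. The difference was −0.54 (standard error 0.16, two-sided exact permutation *P*=0.1, adjusted 0.2) and −0.25 with length and GC trends removed, *Sox10* having the highest GC content of the 10 (62.7%).

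**Figure D4:**
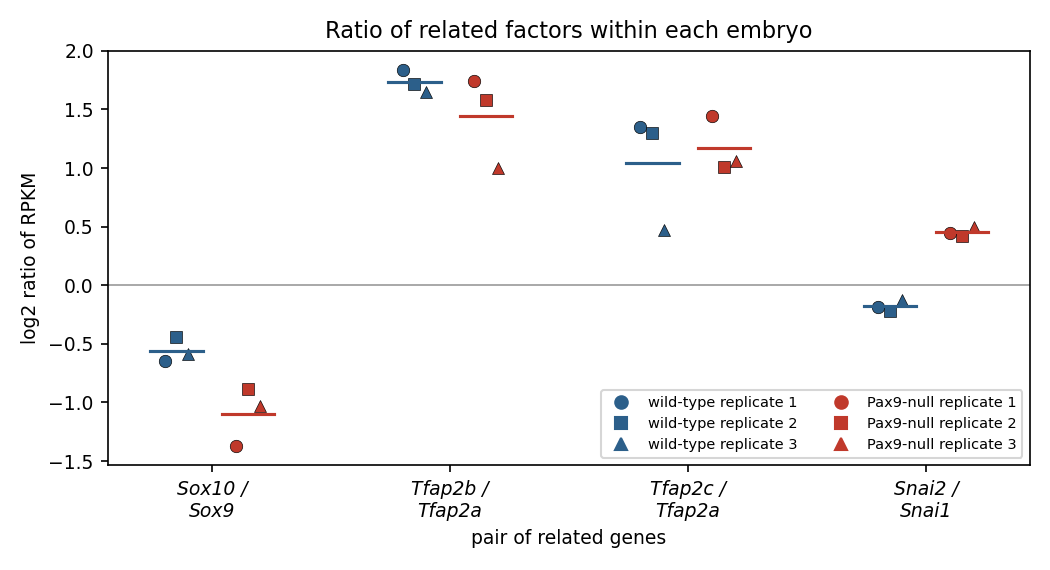
Log2 ratio of RPKM between related factors within each embryo, with wild-type in blue, *Pax9*-null in red and lines at group means. The *Snai2* to *Snai1* ratio is above 0 in all 3 *Pax9*-null embryos and below 0 in all 3 wild-type embryos, and the *Sox10* to *Sox9* ratio is lower in all 3 *Pax9*-null embryos.

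None of the Tfap2 genes, whose products bind GC-rich sites as dimers, was called. *Tfap2b* (ENSMUSG00000025927, chromosome 1, 19208914 to 19238576) had 2.19, 2.36 and 1.97 RPKM in *Pax9*-null and 3.35, 2.34 and 3.49 RPKM in wild-type replicates 1 to 3. Wild-type replicate 2 lay within the *Pax9*-null range and the other 2 wild-type embryos well above it (log2 fold change −0.48, standard error 0.19, adjusted *P*=0.124 by limma), and without that replicate the adjusted *P* was 0.0525. *Tfap2a* (ENSMUSG00000021359, chromosome 13, 40715302 to 40738376) had 0.65, 0.79 and 0.99 RPKM against 0.94, 0.71 and 1.12 RPKM, from 24 to 45 reads. *Tfap2c* (ENSMUSG00000028640, chromosome 2, 172549593 to 172558622) had 1.77, 1.59 and 2.05 RPKM against 2.39, 1.75 and 1.55 RPKM. For both the genotypes overlapped, with log2 fold changes of −0.18 (standard error 0.26, adjusted *P*=0.646 by limma) and −0.05 (standard error 0.21, adjusted *P*=0.882). Of the 4903 annotated exonic bases of *Tfap2a*, 14.6% overlap antisense genes. Its values fit a counting length of 3245 bp, so that the overlap of the bases counted is not known. The log2 ratio to *Tfap2a* changed by −0.29 (standard error 0.23) for *Tfap2b* and by 0.13 (standard error 0.32) for *Tfap2c*, with two-sided exact permutation *P* values of 0.3 and 0.8. Single libraries moved both: the change was −0.07 for *Tfap2b* without *Pax9*-null replicate 3 and −0.15 for *Tfap2c* without wild-type replicate 3.

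*Ets1* (ENSMUSG00000032035, chromosome 9, 32636221 to 32757820), which acts in cardiac crest and in endothelium, had 18.4, 19.4 and 16.2 RPKM in *Pax9*-null and 24.2, 19.1 and 17.9 RPKM in wild-type replicates 1 to 3. Wild-type replicate 1, which also had the highest endothelial sum, was the highest and the rest overlapped (log2 fold change −0.17, standard error 0.13, adjusted *P*=0.381 by limma). Of the 10 endothelial genes 2 were called lower, where 12.0% of all tested genes were called lower. These were *Tie1* (log2 fold change −0.74, called in 2 of the 6 fits that left out a library) and *Cdh5* (−0.67, in 3). The median of the 10 was −0.38, and the most abundant, *Tek*, did not pass (−0.05). The summed endothelial level was 73.1 to 86.5 RPKM in *Pax9*-null and 80.3 to 122.3 RPKM in wild-type embryos.

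Single embryos ranked alike for several of the factors. *Pax9*-null replicate 2 had the highest value of its group for 7 of the 10 genes (*Sox9*, *Sox10*, *Tfap2b*, *Snai1*, *Snai2*, *Ets1* and *Zeb2*), and *Pax9*-null replicate 3 the lowest for 7. Wild-type replicate 2 was the lowest of its group for 6, among them *Sox9*, *Sox10* and *Zeb2*, and wild-type replicate 1 was the lowest for none. The summed level of the 10 factors was 102.3, 109.2 and 96.2 RPKM in the *Pax9*-null and 103.9, 94.2 and 93.6 RPKM in the wild-type replicates, and these ranges overlapped.

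Genes linked to the crest factors were read from 8 lists of 104 genes, of which 84 were tested. RNA from a whole region does not tell whether their reads came from crest cells or from other cells. The median log2 fold change of the 84 was −0.17. In all 15 were called lower and 3 higher, together 21.4% of those tested, against 26.7% of all tested genes. By direction, 12.0% of all tested genes were called lower and 14.7% higher, against 15 and 3 of the 84 here. These counts depended on single libraries. Leaving out *Pax9*-null replicate 1 gave 2 lower and 1 higher, and leaving out *Pax9*-null replicate 3 gave none by limma, when 2.22% and 1.29% of all tested genes were called. Omission of wild-type replicate 2 gave 17 and 7 (26.4% of all tested genes called), and of wild-type replicate 3, 10 and 1 (15.8%). The calls over all genes thus fell along with those in the lists when *Pax9*-null replicate 1 or 3 was left out. Without *Pax9*-null replicate 2, 15 linked genes were called lower and 2 higher, with 3056 genes called in all. With length and GC trends removed 3 were called, all lower.

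**Figure D5:**
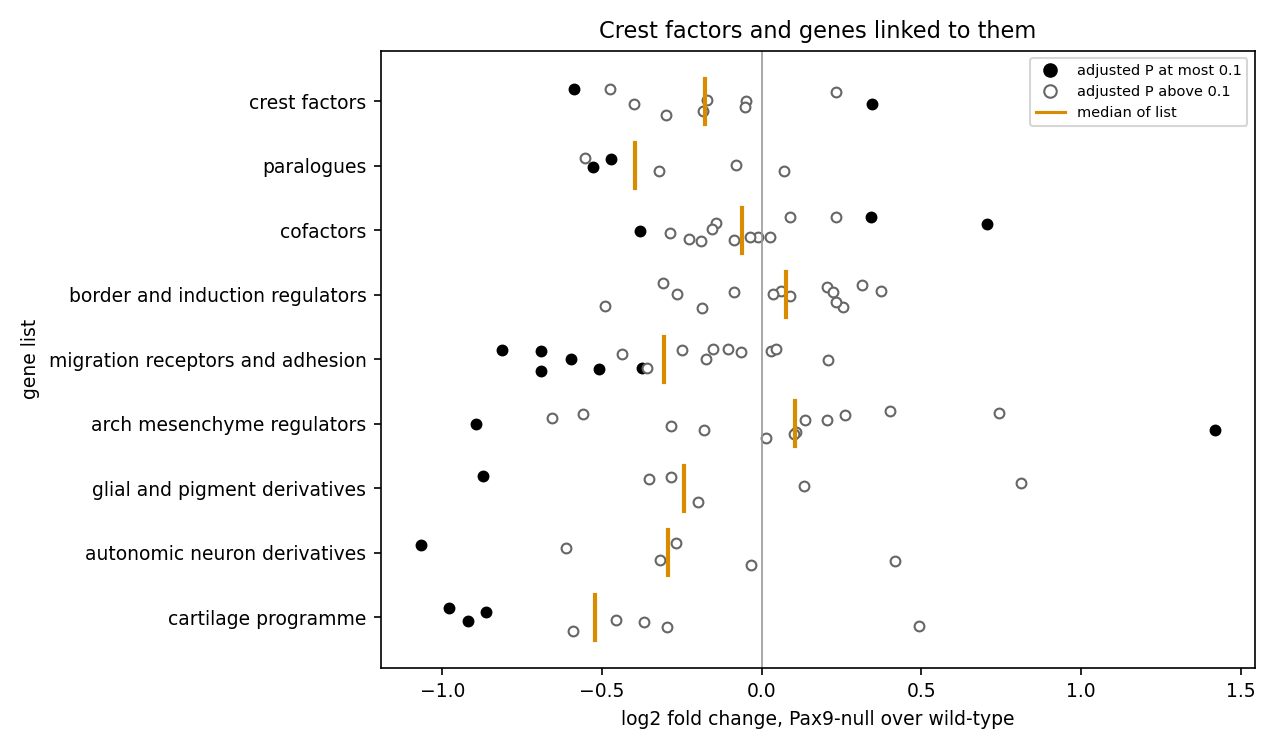
Log2 fold change (*Pax9*-null over wild-type) of each tested gene among the crest factors and the 8 linked lists, filled where the adjusted *P* was at most 0.1, with a bar at the median of each list. Called genes are mostly lower, among them 6 of 16 migration receptors and adhesion genes and 3 of 8 genes of the cartilage programme, while *Barx1* is the highest point.

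Of 11 paralogues 6 were tested and 2 were called, both lower, where 12.0% of all tested genes were called lower. *Zeb1*, a relative of *Zeb2*, had 7.84, 8.24 and 7.13 RPKM in *Pax9*-null and 14.5, 9.03 and 10.5 RPKM in wild-type replicates 1 to 3 (log2 fold change −0.53, adjusted *P*=0.0806 by limma). *Sox8*, the remaining SoxE gene, had 2.12, 2.60 and 2.20 RPKM against 2.94, 2.999 and 3.66 RPKM (log2 fold change −0.47, adjusted *P*=0.0857). The groups did not overlap for either gene, and each was called in 1 of the 6 fits that left out a library. The median of the 6 was −0.40.
Of 14 cofactors, such as the E proteins that pair with *Twist1* and the corepressors of Snail and Zeb proteins, 1 was called lower and 2 higher, with a median of −0.06. The shares among all tested genes were 12.0% lower and 14.7% higher. *Kctd15*, an inhibitor of Tfap2 activity, had a log2 fold change of −0.38 (adjusted *P*=0.0807 by limma), was called in 1 of the 6 fits that left out a library and was at −0.05 (0.801) with length and GC trends removed. *Cited4* and *Cited2*, coactivators of Tfap2 proteins, had log2 fold changes of 0.71 (adjusted *P*=0.0663) and 0.34 (0.0804) in limma, were called in 3 and 1 of these fits, and were at 0.58 (0.209) and 0.36 (0.115) with the trends removed. None of the 14 border and induction regulators was called by limma, with 2 at an unadjusted *P* under 0.05. The most abundant, *Id2* and *Id3*, had log2 fold changes of 0.31 (adjusted *P*=0.152) and 0.22 (0.417), and the list median was 0.07.

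Among receptors and adhesion molecules used by migrating crest, the longest of the lists, 16 of 18 genes were tested, 6 were called lower and none higher, with a median of −0.31, where 12.0% of all tested genes were called lower. *Ret*, the GDNF receptor of enteric and autonomic crest, had 0.95, 1.01 and 1.03 RPKM in *Pax9*-null and 1.56, 1.69 and 2.03 RPKM in wild-type replicates 1 to 3 (log2 fold change −0.81, adjusted *P*=0.0420 by limma). *Ngfr*, the p75 neurotrophin receptor, had 4.60, 5.81 and 4.66 RPKM against 8.40, 7.06 and 8.85 RPKM (−0.69, adjusted *P*=0.0372). The *Pax9*-null values of both genes were below every wild-type value. The crest cadherin *Cdh6* (−0.69), the neuropilin receptor *Nrp2* (−0.60), *Erbb3* (−0.51), the neuregulin receptor of crest glia, and N-cadherin *Cdh2* (−0.38) were the others called, the last 2 being named after their values were seen. *Ret*, *Ngfr* and *Cdh6* were each called in 4 of the 6 fits that left out a library, *Erbb3* and *Cdh2* in 3 and *Nrp2* in 2. After removal of length and GC trends *Cdh6* (−0.75) and *Cdh2* (−0.37) were the genes of the list still called. *Ret* (−0.47, limma adjusted *P*=0.208), *Ngfr* (−0.42, 0.155), *Nrp2* (−0.21, 0.296) and *Erbb3* (−0.31, 0.2003) then had smaller values and were not called.

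Calls among genes linked to derivatives of the crest are given beside the 26.7% of all tested genes called (12.0% lower and 14.7% higher). The cells behind the reads of these genes, and of the cartilage genes below, were not identified. Of 10 glial and pigment genes 6 were tested and 1 was called: *Gfra1*, a coreceptor of *Ret*, with 4.03, 2.58 and 3.11 RPKM against 5.75, 4.86 and 7.11 RPKM (log2 fold change −0.87, adjusted *P*=0.0448 by limma, called in 5 of the 6 fits that left out a library). *Fabp7* (−0.20, adjusted *P*=0.681), the most abundant gene of the list, did not pass. Of 7 autonomic genes 6 were tested, and *Hand2* (0.42, adjusted *P*=0.334 by limma), the most abundant, did not pass. Among markers of neurons at large *Elavl3* was called lower (−1.27, in 4 of the 6 fits that left out a library), and the summed neuronal level was 62.1 to 80.7 RPKM in *Pax9*-null and 74.8 to 152.9 RPKM in wild-type embryos, where wild-type replicate 3, highest in *Gfra1*, was also the highest.

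Of 13 genes of the cartilage programme, which *Sox9* activates with its partners *Sox5* and *Sox6*, 8 were tested and 3 were called, all lower, with a median of −0.52, where 12.0% of all tested genes were called lower. Omission of *Pax9*-null replicate 1 left 1 call in this list, and omission of replicate 3 left none by limma. The most abundant gene of the list, *Hapln1*, which links proteoglycan to hyaluronan, had a log2 fold change of 0.49 (limma adjusted *P*=0.143; named after its values were seen), and the summed level of the list overlapped between *Pax9*-null (84.5 to 108.1 RPKM) and wild-type embryos (84.3 to 104.8 RPKM). *Col2a1* had 9.39, 14.2 and 11.2 RPKM in *Pax9*-null and 24.57, 21.04 and 21.999 RPKM in wild-type replicates 1 to 3, with no overlap (log2 fold change −0.98, adjusted *P*=0.0181 by limma). *Col9a2* (−0.92) and *Col11a1* (−0.86) were the others, each called in 4 of the 6 fits that left out a library, and *Col2a1* in 5. *Col2a1* had a log2 fold change of −0.33 (adjusted *P*=0.107) with these trends removed, whereas *Col11a1* was still called (−0.63, adjusted *P*=0.0880).
Of 17 arch mesenchyme regulators 14 were tested, 1 was called lower and 1 higher, and the median was 0.10. The shares among all tested genes were 12.0% lower and 14.7% higher. *Barx1*, a homeobox gene of arch and stomach mesenchyme, had 7.68, 11.3 and 14.4 RPKM in *Pax9*-null and 6.06, 3.10 and 3.50 RPKM in wild-type embryos (log2 fold change 1.42, adjusted *P*=0.0398 by limma), with no overlap and a call in 5 of the 6 fits that left out a library. The LIM homeobox gene *Lhx6*, with 15 to 48 reads, was called lower (−0.89, limma adjusted *P*=0.0710), in 2 of the 6 fits that left out a library.

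Markers of the other tissues in which the factors are active are given beside the 26.7% of all tested genes called (12.0% lower and 14.7% higher). Of 6 tested surface ectoderm genes none was called by limma and 1 had an unadjusted *P* under 0.05. *Epcam* was the most abundant (log2 fold change 0.12), with a mean of 33.4 RPKM over all libraries. The summed level of the list, most of it from *Epcam*, was 48.5 to 60.9 RPKM in *Pax9*-null and 49.1 to 53.7 RPKM in wild-type embryos. Of 7 mesoderm genes only *Tcf21* was called, higher by 0.40 (log2) and in 1 of the 6 fits that left out a library, and the most abundant, *Meox1*, did not pass (0.04). Of the 7 tested endoderm genes only *Pax9* was called, and *Nkx2-6* was the most abundant (−0.18). None of 9 neural tube genes (*Sox2* leading, 0.26) and neither of 2 tested otic genes (*Lmx1a*, −0.17) was called by limma, and 0 of them had an unadjusted *P* under 0.05. All 8 erythroid genes had values above 0, and *Hbb-bh1* (0.78) was called, in 2 of the 6 fits that left out a library and at −0.03 with length and GC trends removed, while none of 7 cardiomyocyte genes was called by limma (0 at an unadjusted *P* under 0.05; *Myl7* leading, 1.78, standard error 1.08). Without wild-type replicate 3, which was low in these transcripts, 4 of them were called, all lower: *Myh6* (−1.60), *Myh7* (−1.39), *Actn2* (−1.16) and *Tnnt2* (−0.73), of which all but *Myh7* had values above 0 with that library, and *Myl7* was at 0.28.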

How the data were processed

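Dissected pharyngeal tissue of 3 embryos per genotype was sequenced. The authors trimmed reads with Trimmomatic 0.32, aligned them with STAR 2.5.1a to the mouse genome (GRCm38.p5) and counted them with featureCounts 1.5.1, per the submitters' processing notes (the methods name another release of STAR), and deposited log2 RPKM values for 14647 genes. The methods describe strand-specific libraries but default counting settings, which do not use strand. Reads from places where genes overlap thus cannot be assigned by strand, and whether they were counted or left out was not examined. At GENCODE lengths and a prior of 0.5 reads, 82.7% of values gave whole reads (within 0.05), and read numbers were taken from these. Where a gene's values were not whole, as for *Sox10*, *Tfap2a*, *Snai2* and *Twist1*, the nearest length that made all 6 whole was searched for (2713, 3245, 2031 and 1616 bp), so that their read numbers are inferred. Read numbers cover counting error only.

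Values were compared by limma 3.58.1 (R 4.3.3, eBayes with trend) over the 13547 genes whose mean reached 0.5 RPKM, with Benjamini-Hochberg adjustment and a threshold of 0.1, and the code was tested on simulated data. Single values were tested by exact permutation, which with 3 against 3 cannot go below 0.1. Nothing says that embryos came from separate litters, so *P* values cover the spread between these samples. Alternatives were other filters, pseudocounts (0.1 and 1 RPKM), scalings, a replicate block, array weights, removal of length and GC trends (loess, span 0.3), a threshold of 0.05 and each library left out. The members and lists were chosen with earlier results of these data known. Named were all members, *Pax9*, the called genes of each linked list by size of change (up to 4 a direction), its most abundant genes where fewer than 2 were called, and in marker lists the most abundant and called genes. Some results of single genes are not reported here.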

Additional observations from a re-analysis of the deposited data

How the results depend on the processing

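*Sox10* was lower and *Twist1* higher under every alternative tried, but *Sox10* was called in 7 of 16 and *Twist1* in 13 of 17. With length and GC trends removed 339 genes were called, 0 members lower and 0 higher, and 3 linked genes lower and 0 higher. The log2 ratio differences then were −0.248 (*Sox10* to *Sox9*) and 0.246 (*Snai2* to *Snai1*, which was 0.509 with 1 RPKM added), and the log2 fold changes of *Tfap2a* (0.0628), *Tfap2c* (0.0357), *Snai2* (−0.154) and *Zeb2* (0.0195) changed sign, as did *Tfap2c* with array weights (0.0692). Members called lower were 0 at 5 RPKM or more, where *Sox10* was not tested, 0 without the eBayes trend, 0 at a threshold of 0.05 and 2 with array weights. Linked genes called were 8 lower and 6 higher at 5 RPKM or more, 8 and 1 at 0.05, with 5 higher after median centring and 6 higher with array weights. At 0.05, 1335 genes were called.

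With a replicate block 1377 genes, 0 members lower, 0 members higher and 8 linked genes lower were called. The replicate numbers do not pair embryos in the labels, and deviations of same-numbered embryos correlated by −0.0199, −0.173 and 0.26, so the block tests only a shared number. With one library left out, genes called ranged from 175 to 3578, members called from 0 to 2 lower and 0 to 1 higher, and linked genes from 0 to 17 lower and 0 to 7 higher. The log2 fold change of *Sox9* ranged from −0.156 to 0.0277 and of *Tfap2c* from −0.187 to 0.127. The cause of these shifts was not tested. Of the 10 factors *Tfap2a* had the lowest read numbers (24 to 45 reads), which limit what its values show.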
